A study of Mus musculus with 8 samples.

Results

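Histone genes and histone variants were compared between 2 sorted fractions of mouse bone marrow. The genes were taken by name, as those beginning Hist1h to Hist4h, H1f, H2af or H3f3, and were counted once per gene ID, which gave 88 of the 46113 gene IDs in the files. Of these, 70 carry names of the Hist1 to Hist4 gene clusters (6 H1, 20 H2A, 19 H2B, 12 H3 and 13 H4 genes) and 18 carry names of variant genes (2 H1, 11 H2A and 5 H3). Exons were given for 81 of the 88, 67 clustered and 14 variant, and 70 of those 81 had 1 exon.

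The HSC group held 4 libraries of cells labelled CD150+ CD34- Sca1+ c-Kit+ Lineage-, the hematopoietic stem cell fraction. The HPC group held 4 libraries of cells labelled CD150+ CD34+ Sca1+ c-Kit+ Lineage-, the progenitor fraction. All 8 came from bone marrow of C57BL/6 mice aged 8 to 10 weeks, and the labels name no allele, treatment or agent. No label states whether the 4 libraries of a group are of different mice, and p-values here therefore reflect differences between libraries that may be technical. The source name of all 8 libraries reads hematopoietic stem cells, and the sorting step in the protocol speaks of HSC only; the fraction was taken from the titles and marker labels.

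Histones are the proteins around which DNA is wound. Core histones H2A, H2B, H3 and H4 form the nucleosome, and linker histone H1 binds the DNA between nucleosomes. Most histone protein is made in S phase from the clustered genes, whose mRNAs end in a conserved stem-loop bound by SLBP in place of a poly(A) tail. Variant genes mostly lie outside the clusters, although H2afj lies near Hist4h4 on chromosome 6. They are mostly made throughout the cell cycle as ordinary polyadenylated mRNAs, and their proteins are placed in chromatin by dedicated chaperones. How first-strand cDNA was primed is not given in the sources used here, and a method that reads poly(A) tails would sample tail-less mRNAs poorly.

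The stem-loop is the sequence that sets the 2 classes apart, and it was looked for as a stem of 6 base pairs, starting with GG and closed by a T-A pair, around a loop of 4 bases. In GENCODE M21 transcripts it was present in 46 of the 67 clustered genes with exons and in 1 of the 14 variant genes, H2afx, against 88 of 21821 other coding genes (0.403%). The commonest form, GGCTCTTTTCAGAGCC, was carried by 26 clustered genes. The examples below come from genes named in the results, with stem and loop in capitals and 5 flanking bases on each side.

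Hist1h2ao: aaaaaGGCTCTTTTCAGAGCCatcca

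Hist1h2ae: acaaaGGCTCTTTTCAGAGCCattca

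Hist1h2bb: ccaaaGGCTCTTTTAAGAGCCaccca

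Hist1h1d: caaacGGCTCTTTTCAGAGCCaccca

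Hist1h3d: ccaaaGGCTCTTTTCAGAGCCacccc

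Hist1h4d: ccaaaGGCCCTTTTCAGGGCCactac

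H2afx: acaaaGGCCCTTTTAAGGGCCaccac

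In these examples the loop is the part read as TTTC or TTTA, and Hist1h4d and H2afx have a GGCCC stem where the other 5 have GGCTC. The 21 clustered gene models without a match include the abundant Hist1h2bc and Hist2h2be; no match says only that these letters are not in the annotated transcript.

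Libraries held 16291733 to 19070313 exon reads in HSC and 18223082 to 20564901 in HPC. Libraries differed in a way that cut across the groups: exon-exon reads made up 54.8% and 56.8% of exon reads in HSC replicates 3 and 4 and 56.6% and 54.9% in HPC replicates 1 and 2, against 50.5% and 48.6% in HSC replicates 1 and 2 and 52.2% and 51.7% in HPC replicates 3 and 4. Among the sort markers, Cd34 was 120 ± 15.4 CPM in HSC against 1276 ± 55.9 CPM in HPC, and Slamf1, which encodes CD150, was 37.6 ± 6.02 CPM in HSC against 3.14 ± 0.736 CPM in HPC (mean ± SD, n = 4 each). Slamf1 was thus low in HPC libraries that are labelled CD150+. Levels are given throughout as TMM-normalised CPM, counts scaled to library size, and changes as log2 of HSC over HPC with their standard error, from edgeR's quasi-likelihood test with Benjamini-Hochberg adjustment over all genes tested. Of 12751 genes tested, 37.1% were called at an adjusted p under 0.05, with 17.6% lower and 19.6% higher in HSC. Among the 6 sort markers (Cd34, Slamf1, Ly6a, Kit, Flt3 and Cd48) 2 were higher in HSC, 3 were lower and 1 had no call.

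Among the variant genes, H2afy and H2afy2, which encode the large variants macroH2A1 and macroH2A2, were much lower in HSC. Genes for H2A.X, both H2A.Z proteins and one source of H3.3 were lower by smaller amounts, and the linker histone gene H1f0 was higher. Of 14 variant genes with exons 10 passed the count filter; 6 of the 10 were lower in HSC, 1 was higher and 3 had no call, and in 7 of the 10 the HSC and HPC libraries did not overlap (36.7% of all genes tested). Their median log2 change was −0.62, beside 0.00 for all genes tested, of which 17.6% were lower and 19.6% higher. In bulk samples, fewer cells of a type and less RNA per cell cannot be told apart.

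H2afy lies on chromosome 13 from 56073622 to 56135626, minus strand, in the files' mm10 coordinates. It measured 402, 419, 307 and 407 CPM in HSC, against 2550, 2781, 2300 and 2993 CPM in HPC. Every HPC library stood above every HSC library, by 6.92-fold in the means, and the log2 change was −2.79 ± 0.13 (adjusted p = 9.6e-10). H2afy2, on chromosome 10, measured 2.27, 3.29, 4.43 and 4.06 CPM in HSC, against 15.5, 17.5, 16.4 and 19.998 CPM in HPC, a log2 change of −2.30 ± 0.23. The groups again did not overlap, although H2afy2 stood far below H2afy in both. MacroH2A proteins carry a large non-histone domain and are known from repressed chromatin such as the inactive X chromosome. H2afy2 overlaps neighbouring genes in the files, and 68.4% of its HSC reads and 70.8% of its HPC reads were uniquely placed, against nearly all of those of H2afy.

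H2afx encodes H2A.X, the variant phosphorylated at DNA breaks. It measured 145, 138, 123 and 156 CPM in HSC, against 347, 302, 300 and 329 CPM in HPC, a log2 change of −1.19 ± 0.10. H2afz and H2afv encode H2A.Z.1 and H2A.Z.2, variants placed around transcription start sites by dedicated remodelling complexes. H2afz measured 1043, 996, 1022 and 1415 CPM in HSC, against 1800, 1771, 1536 and 1894 CPM in HPC, and H2afv 171, 149, 147 and 187 CPM in HSC, against 269, 298, 261 and 298 CPM in HPC. The 2 genes changed by −0.65 ± 0.12 and −0.78 ± 0.10, without overlap between the groups in total reads. HSC replicate 4 stood well above the other HSC libraries in H2afz.

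H3f3a and H3f3b encode the same H3.3 protein, which replaces H3 outside S phase. H3f3a measured 547, 450, 348 and 465 CPM in HSC, against 620, 567, 743 and 813 CPM in HPC, a log2 change of −0.60 ± 0.14 (adjusted p = 0.0037). H3f3b measured 2323, 2455, 2380 and 2695 CPM in HSC, against 2209, 2595, 2040 and 2404 CPM in HPC, with a change of 0.09 ± 0.10 and no call (adjusted p = 0.52). H3f3a was thus lower in HSC without overlap, while the ranges of H3f3b overlapped; whether the 2 genes changed by different amounts was not tested.

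H1f0, which encodes linker histone H1.0, best known from cells that have stopped dividing, measured 391, 346, 330 and 349 CPM in HSC, against 276, 287, 242 and 257 CPM in HPC. It was the only variant or clustered gene called higher in HSC, by 0.41 ± 0.09 (adjusted p = 0.0025), and the groups did not overlap. H1fx, a second linker gene outside the clusters, measured 13.1, 24.4, 6.29 and 24.6 CPM in HSC, against 5.71, 20.3, 7.58 and 24.1 CPM in HPC. Replicates 2 and 4 were high in both fractions, and H1fx had no call (0.24 ± 0.45). H2afj, which encodes H2A.J, changed by −0.23 ± 0.12 with no call (adjusted p = 0.16). Without HSC replicate 4 it passed the test (adjusted p = 0.036). No exon read was counted in any library for H2afb1, H2afb2 or H2afb3, known from the germ line, and H3f3c reached at most 0.211 CPM.

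**Figure D1:**
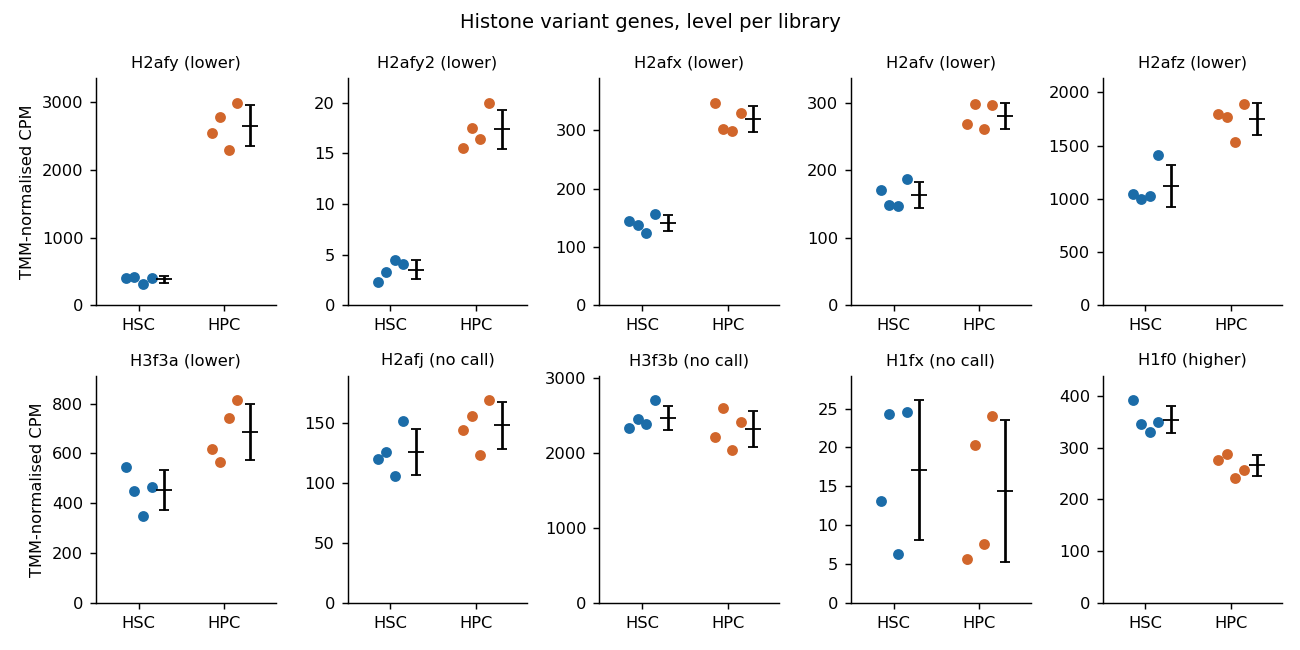
TMM-normalised CPM (y axes, from 0) of the 10 variant genes that passed the filter, HSC in blue and HPC in orange, 1 point per library, with mean ± SD (n = 4) in black beside them. The 4 H2afy values of HSC lie between 307 and 419 CPM, below the HPC values of 2300 to 2993 CPM, while H3f3b, H2afj and H1fx overlap.

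Among the clustered genes the called changes all ran one way. Of 67 with exons 45 passed the count filter; 24 were lower in HSC, 0 were higher and 21 had no call, beside 17.6% of all genes tested that were lower. The 0 holds for edgeR, for DESeq2 and at an unadjusted p under 0.05, where 27 were lower. The median log2 change of the 45 was −1.10, and in 26 the HSC and HPC libraries did not overlap (36.7% of all genes tested). Of the 45, 18 exceeded the filter's cutoff of about 0.527 CPM in fewer than 4 HSC libraries, and 2 in none, so these passed partly or wholly through HPC. Genes called lower are among the 18, so the count of 24 is not independent of the filter. With no count filter, 20 of 65 were lower and 0 higher. The share of all genes lower with no filter, or at an unadjusted p, is not given here. Over every clustered gene with any read, filter or not, the HSC mean was below the HPC mean in 57 of 65, and no read was counted for Hist1h2aa and Hist1h2ba; for all genes with reads the HSC mean was lower in 46.5% of 17040.

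Each histone type contributed to the lower calls. They were 4 of 5 tested H1 genes, 6 of 11 H2A, 7 of 14 H2B, 5 of 9 H3 and 2 of 6 H4, beside 17.6% of all genes tested. By cluster, 21 of 34 tested genes were lower in Hist1 on chromosome 13 and 3 of 8 in Hist2 on chromosome 3, and none of the 2 in Hist3 on chromosome 11 or the 1 in Hist4 on chromosome 6.

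**Figure D2:**
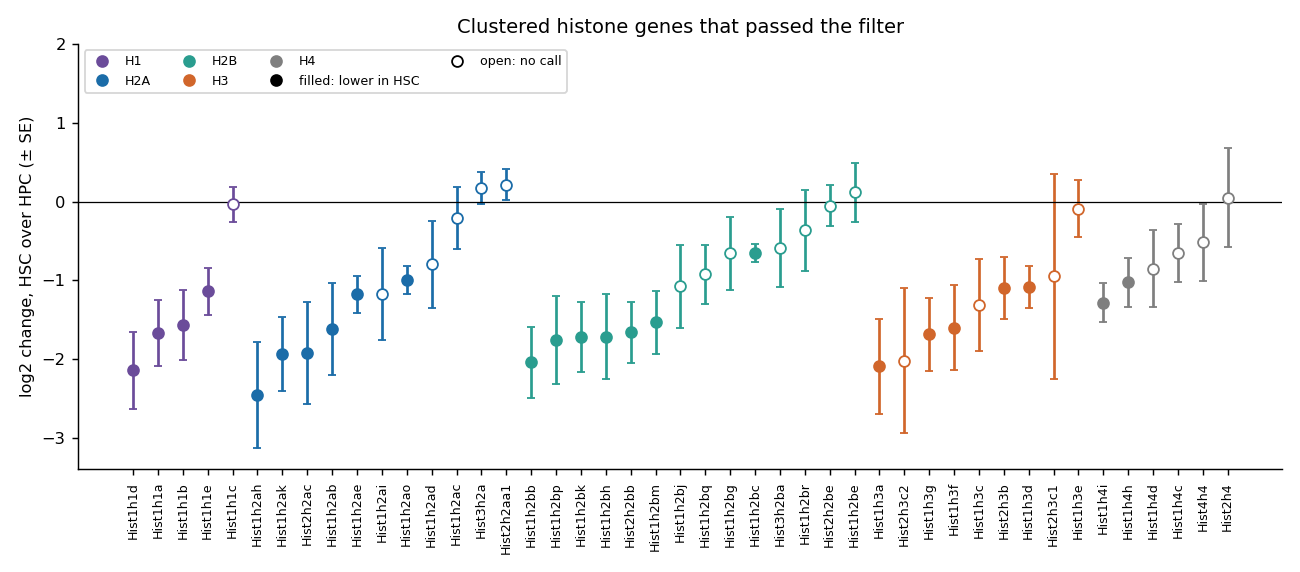
Log2 change of HSC over HPC with its SE (y axis) for the 45 clustered genes that passed the filter, ordered by histone type (colour) and size of change; filled points were called lower in HSC and open points had no call. No filled point lies above 0, and the largest decrease is that of Hist1h2ah at −2.46.

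Summing over copies avoids the question of which of the 67 genes a read belongs to. It does not settle reads shared with gene models outside the sum, such as Gm20633, which holds all the sequence of Hist2h2aa1. All 67 clustered genes together measured 758, 737, 620 and 1083 CPM in HSC, against 1642, 1570, 1260 and 1560 CPM in HPC, and the groups did not overlap. The means were 800 ± 199 CPM in HSC against 1508 ± 169 CPM in HPC, 1.89-fold higher in HPC. H3 genes summed to 11.99 ± 1.86 CPM in HSC against 26.1 ± 4.63 CPM in HPC, and H4 genes to 19.2 ± 4.88 CPM in HSC against 36.8 ± 8.74 CPM in HPC. H2B genes summed to 78.9 ± 7.72 CPM in HSC against 128 ± 6.84 CPM in HPC. H1 genes summed to 24.5 ± 5.52 CPM in HSC against 40.6 ± 7.32 CPM in HPC. H2A genes summed to 665 ± 186 CPM in HSC against 1276 ± 187 CPM in HPC. Each of these 5 sums was lower in every HSC library than in any HPC library. The Hist1 cluster summed to 732 ± 185 CPM in HSC against 1437 ± 170 CPM in HPC, whereas Hist2 summed to 56.9 ± 16.0 CPM in HSC against 59.9 ± 6.77 CPM in HPC, with overlapping libraries. Hist2h2aa1 held most of the Hist2 sum, and the other 9 genes measured 11.7, 15.4, 14.3 and 17.8 CPM in HSC, against 19.1, 24.4, 25.7 and 24.9 CPM in HPC, without overlap and 1.59-fold higher in HPC.

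A single gene, Hist1h2ao, an H2A gene at chromosome 13, 21810367 to 21810918 on the plus strand, held 70.4% to 77.8% of the clustered reads in HSC libraries and 72.0% to 81.1% in HPC libraries. It measured 544, 519, 459 and 843 CPM in HSC, against 1328, 1273, 907 and 1208 CPM in HPC, a log2 change of −0.995 ± 0.17 (adjusted p = 0.00037). HSC replicate 4 was the highest HSC library and lay below every HPC library in total reads. In its GENCODE transcript 93.5% of the stretches of 50 bases also occur in Hist1h2ap, yet most Hist1h2ao reads were uniquely placed. Where along the gene its reads lie was not analysed here, so they were not shown to come from the H2A mRNA alone. Without Hist1h2ao the other 66 genes summed to 208 ± 33.5 CPM in HSC against 329 ± 28.1 CPM in HPC, 1.58-fold higher in HPC. The H2A sum alone, also without that gene, was 73.6 ± 18.0 CPM in HSC against 97.5 ± 6.29 CPM in HPC, and the 2 groups overlapped.

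**Figure D3:**
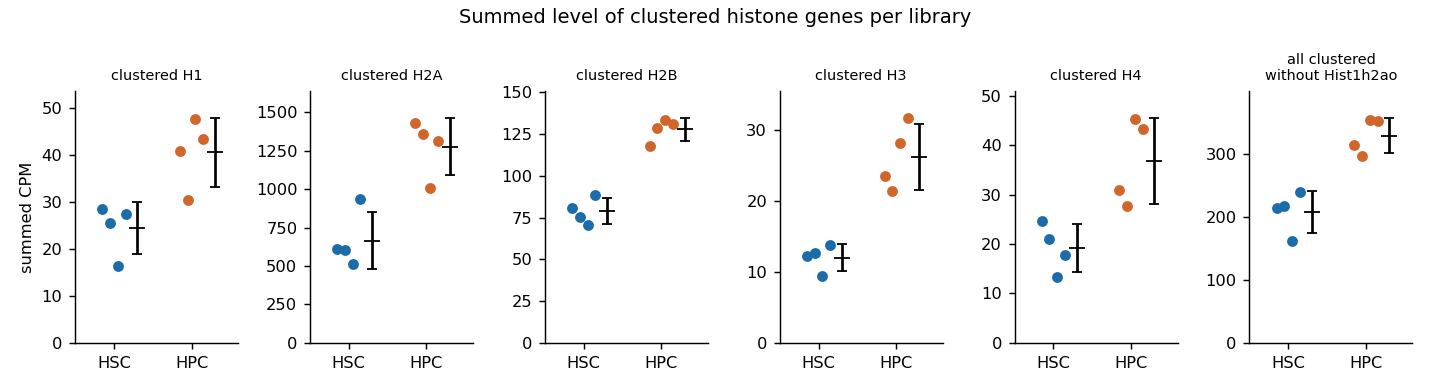
Summed CPM (y axes, from 0) of the clustered genes by histone type, and of all clustered genes without Hist1h2ao, HSC in blue and HPC in orange, 1 point per library, with mean ± SD (n = 4) in black. In each panel the HSC libraries lie below the HPC libraries, with 161 to 240 CPM in HSC and 297 to 353 CPM in HPC in the last panel.

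Per length of exon, in the authors' deposited RPKM, Hist1h2ao stood first among the histone genes in both fractions, with 801 ± 238 RPKM in HSC and 1530 ± 267 RPKM in HPC. The limit on its reads given above holds here too. H2afz followed with 783 ± 145 RPKM in HSC and 1172 ± 111 RPKM in HPC, and H3f3b with 783 ± 60.2 RPKM in HSC and 703 ± 79.5 RPKM in HPC. In HSC the libraries of these 3 genes overlapped, while in HPC those of Hist1h2ao and H2afz overlapped each other and stood above those of H3f3b. H3f3a followed in both, with 311 ± 50.3 RPKM in HSC and 451 ± 66.5 RPKM in HPC. H2afy was at rank 11 in HSC with 40.4 ± 4.90 RPKM and at rank 5 in HPC with 268 ± 30.8 RPKM. After Hist1h2ao the highest clustered gene in HPC was Hist1h2bc, with 52.2 ± 6.66 RPKM in HSC and 78.6 ± 1.65 RPKM in HPC. Since the priming of cDNA is not given, tail-less clustered mRNAs may have been sampled more poorly than variant mRNAs. Ranks across the 2 classes may carry that difference, which was not tested.

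Among the other abundant core histone genes, Hist1h2bc, Hist1h2ae and Hist1h3d of the Hist1 cluster were lower in HSC, and Hist2h2be and Hist3h2a had no call. Hist1h2bc, an H2B gene, measured 58.1, 48.4, 47.9 and 61.9 CPM in HSC, against 83.4, 86.0, 87.2 and 83.9 CPM in HPC, a change of −0.65 ± 0.11. Hist1h2ae, an H2A gene, measured 21.7, 20.7, 9.15 and 17.0 CPM in HSC, against 46.7, 29.2, 42.5 and 36.8 CPM in HPC, a change of −1.18 ± 0.23. Neither gene overlapped between the groups. Hist1h3d, an H3 gene, measured 4.77, 4.50, 3.07 and 4.75 CPM in HSC, against 7.77, 6.51, 11.3 and 10.6 CPM in HPC, a change of −1.08 ± 0.26 without overlap. Hist2h2be, an H2B gene of Hist2, was 9.02 ± 1.79 CPM in HSC against 9.36 ± 2.91 CPM in HPC, and Hist3h2a, an H2A gene of Hist3 that overlaps Trim17 in the files, was 7.90 ± 0.462 CPM in HSC against 7.01 ± 0.751 CPM in HPC (mean ± SD, n = 4 each). Both had overlapping libraries and no call, with changes of −0.05 ± 0.26 and 0.17 ± 0.20.

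Among the linker histone genes of the cluster, Hist1h1a, Hist1h1b, Hist1h1d and Hist1h1e were lower in HSC, Hist1h1c had no call and Hist1h1t was not tested. Hist1h1a and Hist1h1b changed by −1.67 ± 0.42 and −1.57 ± 0.44. Hist1h1c, which encodes H1.2, measured 12.8, 16.5, 10.9 and 18.2 CPM in HSC, against 11.4, 11.6, 20.1 and 16.8 CPM in HPC, with no call (−0.03 ± 0.22). Hist1h1e, which encodes H1.4, measured 9.36, 5.23, 3.22 and 5.33 CPM in HSC, against 15.5, 8.59, 13.2 and 13.6 CPM in HPC, a change of −1.14 ± 0.30 (adjusted p = 0.0073), and the groups overlapped through HSC replicate 1 and HPC replicate 2. Hist1h1d, which encodes H1.3, measured 0.477, 0.314, 0.352 and 0.686 CPM in HSC, against 2.06, 1.94, 2.51 and 1.66 CPM in HPC, a change of −2.14 ± 0.49 (adjusted p = 0.0029). In most HSC libraries it lay under the filter's cutoff of about 0.527 CPM. Hist1h1c was the most abundant clustered linker gene in both fractions, and its libraries overlapped where those of Hist1h1d did not. The difference in change between these genes was not tested.

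Among the core histone genes of the clusters called lower, the largest decreases at a mean of at least 1 CPM were in genes of low level. Hist1h2ah measured 0.417, 0.732, 0 and 0.369 CPM in HSC, against 2.48, 1.94, 2.12 and 1.88 CPM in HPC, a change of −2.46 ± 0.68. Hist1h2bb measured 0.954, 0.784, 0.553 and 0.580 CPM in HSC, against 2.75, 1.79, 3.29 and 4.03 CPM in HPC, a change of −2.04 ± 0.45. Hist1h2ak measured 0.715, 0.523, 0.352 and 0.738 CPM in HSC, against 2.01, 1.94, 2.12 and 2.87 CPM in HPC, a change of −1.93 ± 0.47. All 3 are core histone genes of Hist1 (H2A, H2B and H2A), and in none did the groups overlap. Hist2h2ac, an H2A gene of Hist2, measured 0.775, 0.627, 0.0503 and 0.369 CPM in HSC, against 1.16, 1.09, 2.12 and 2.54 CPM in HPC, a change of −1.92 ± 0.65 (adjusted p = 0.031). That call was lost without HSC replicate 3, HSC replicate 4, HPC replicate 3 or HPC replicate 4, with adjusted p of 0.069, 0.074, 0.072 and 0.090. Hist1h2ah lay under the filter's cutoff of about 0.527 CPM in HSC replicates 1, 3 and 4, and Hist2h2ac in HSC replicates 3 and 4. Hist1h2ak lay under it in at least HSC replicate 3. These genes thus passed partly through HPC, so their calls are not independent of the filter.

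H2A and H2B genes of the clusters are often arranged head to head over a shared promoter, and 15 such divergent pairs lay within 1000 bp in the files, 14 of them an H2A with an H2B gene. Partners could be far apart in level. Hist1h2ao averaged 591 ± 172 CPM in HSC against 1179 ± 188 CPM in HPC, while Hist1h2bq, whose start lies 167 bp away, averaged 2.42 ± 0.914 CPM in HSC against 4.60 ± 1.59 CPM in HPC with no call (−0.92 ± 0.37). Hist2h2ac and Hist2h2be start 191 bp apart and changed by −1.92 and −0.05. Hist1h2ah and Hist1h2bk, 177 bp apart, were both lower, with changes of −2.46 and −1.72. Hist1h2ac, 239 bp from Hist1h2bc, was 2.03 ± 0.657 CPM in HSC against 2.35 ± 0.396 CPM in HPC, with no call. Differences in change between partners were not tested.

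Promoters of 300 bases, from 250 before to 50 after the start, were taken from RefSeq (GRCm38.p6) for 75 of the 88 genes, with 76 promoters in all since Hist1h2be has 2, and 4 motifs were searched on both strands. The CCAAT box (CCAAT) was present in 85.7% of 63 clustered promoters, 61.5% of 13 variant promoters and 37.4% of all 32851 promoters of that length. The octamer (ATTTGCAT) was present in 22.2% of clustered promoters, all of them H2A or H2B, in 7.69% of variant promoters and in 1.74% of all promoters. The CHR element (TTTGAA) was present in 46.0%, 23.1% and 17.9%, and the H1 box (AAACACA) in 14.3%, 7.69% and 7.18%, in the same order of promoter sets. Among the 6 clustered H1 promoters 5 held the H1 box and all 6 the CCAAT box, while 3 of 12 H4 promoters held the CCAAT box. Each motif was counted whether or not it overlapped another. A match is a stretch of letters and not a shown binding site. The promoters of Hist1h2ao, which held most clustered reads, and of the linker genes Hist1h1d and Hist1h1c, which changed by −2.14 and −0.03, are given 5′ to 3′ on the gene's strand with motif matches in capitals.

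Hist1h2ao, chr13:21810117-21810416, plus strand: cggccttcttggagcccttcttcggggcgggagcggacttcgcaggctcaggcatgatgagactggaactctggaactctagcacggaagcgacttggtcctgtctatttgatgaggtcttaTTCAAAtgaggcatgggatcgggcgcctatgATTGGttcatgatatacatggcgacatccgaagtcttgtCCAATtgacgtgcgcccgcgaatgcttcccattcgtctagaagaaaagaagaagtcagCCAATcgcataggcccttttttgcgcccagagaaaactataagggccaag

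Hist1h1d, chr13:23554782-23555081, plus strand: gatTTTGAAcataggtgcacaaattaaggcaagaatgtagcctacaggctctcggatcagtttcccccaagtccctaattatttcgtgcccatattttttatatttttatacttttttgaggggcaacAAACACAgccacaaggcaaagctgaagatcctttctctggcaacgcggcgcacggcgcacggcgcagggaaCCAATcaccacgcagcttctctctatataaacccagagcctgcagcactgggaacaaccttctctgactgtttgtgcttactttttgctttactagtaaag

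Hist1h1c, chr13:23738557-23738856, plus strand: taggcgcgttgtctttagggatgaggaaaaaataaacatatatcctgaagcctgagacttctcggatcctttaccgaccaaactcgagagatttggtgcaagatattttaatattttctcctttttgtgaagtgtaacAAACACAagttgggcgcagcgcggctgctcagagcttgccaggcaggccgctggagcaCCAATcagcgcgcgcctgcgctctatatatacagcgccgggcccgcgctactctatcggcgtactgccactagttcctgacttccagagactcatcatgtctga

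Both linker promoters hold an H1 box followed by a CCAAT box, and the TTTGAA element is present in that of Hist1h1d and not in that of Hist1h1c. The element is also absent from the promoters of Hist1h1e and Hist1h1a, which changed by −1.14 and −1.67, and it is present in 2 of the 6 clustered H1 promoters. In the Hist1h2ao promoter the CCAAT box occurs on both strands and the TTTGAA element on the minus strand. The window of that promoter is set on a start 98 bases before the GENCODE start of the gene.

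The annotated distance from the stem-loop to the transcript's end also varied among clustered genes. Of 23 genes whose model ran at most 100 bases past the stem-loop 14 were tested, 10 were lower in HSC and the median log2 change was −1.58. Of 23 whose model ran further, among them Hist1h1c, 20 were tested, 7 were lower and the median was −0.75. Of 21 with no stem-loop in the model 11 were tested, 7 were lower and the median was −1.17. These are descriptions of annotated models, with no test. Of all genes tested, 17.6% were lower.

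Copies of clustered histone genes are so alike that a read can often be placed at several of them, so the test was repeated on uniquely placed exon reads. Of 12143 genes tested there 17.4% were lower and 19.0% higher in HSC. Among clustered genes 38 were tested, 24 were lower and 0 higher; 23 genes were lower in both fits, with Hist2h3b lower in total reads alone and Hist1h3c in unique reads alone. All 6 lower variant genes and H1f0 kept their calls. Hist1h2ao and H2afz, whose groups did not overlap in total reads, overlapped in unique reads through HSC replicate 4, with 860 CPM beside 834 CPM in HPC replicate 3 for Hist1h2ao, and 640.4 CPM beside 563 CPM in HPC replicate 3 for H2afz. Over the 38 clustered genes tested in both, the change differed by a median of 0.021 and at most by 0.284, in Hist1h3g.

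**Figure D4:**
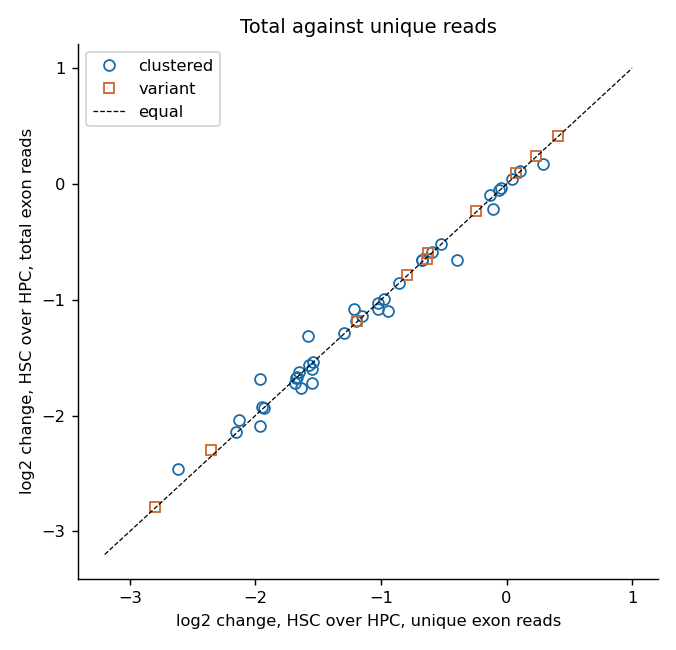
Log2 change of HSC over HPC from total exon reads (y axis) against that from unique exon reads (x axis), 1 point per gene tested in both, clustered genes as circles and variant genes as squares; the dashed line marks equal change. Points lie near the line, and the gene farthest from it, Hist1h3g, is off by 0.284.

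The uniquely placed share itself ranged over the whole scale. Of 41 clustered genes with at least 100 reads over the 8 libraries, 20 were over 90% unique and 5 under 10%. The 5 were the copies Hist1h2bq and Hist1h2br, the copies Hist2h3c1 and Hist2h3c2, and Hist2h2aa1. Hist2h2aa1 measured 30.5, 48.1, 31.2 and 58.5 CPM in HSC, against 33.4, 39.4, 30.3 and 42.3 CPM in HPC, with no call, and 0.0633% of its HSC reads and 0.0366% of its HPC reads were unique. Its copy Hist2h2aa2 received between 0 and 27 reads per library, so how reads were divided between the copies is uncertain, and their sum was 42.6 ± 14.3 CPM in HSC against 36.8 ± 5.09 CPM in HPC. Hist2h3c1 received no read in HSC replicates 3 and 4 and HPC replicates 1 and 2, where Hist2h3c2 received 10, 22, 78 and 64 reads. Their sum was 1.27 ± 0.616 CPM in HSC against 3.66 ± 0.520 CPM in HPC, without overlap, although neither copy was called alone. Among variant genes, H2afz was 33.9% unique in HSC and 33.4% in HPC, and H3f3a 57.2% in HSC and 57.8% in HPC.

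The unique share varied across libraries within both fractions. In H2afz it was 30.1%, 28.2%, 36.6% and 38.3% in HSC replicates 1 to 4 and 37.5%, 35.8%, 30.4% and 29.3% in HPC replicates 1 to 4. In Hist1h2ao it was 75.1%, 75.1%, 86.7% and 86.3% in HSC and 84.0%, 81.7%, 76.3% and 76.5% in HPC. HSC replicates 3 and 4 and HPC replicates 1 and 2 were the higher 4 in both genes, and the same 4 had the larger exon-exon share. With the unique share of each library as a covariate, 22 of 45 tested clustered genes were lower in HSC. The share of all genes lower in that fit is not given here.

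**Figure D5:**
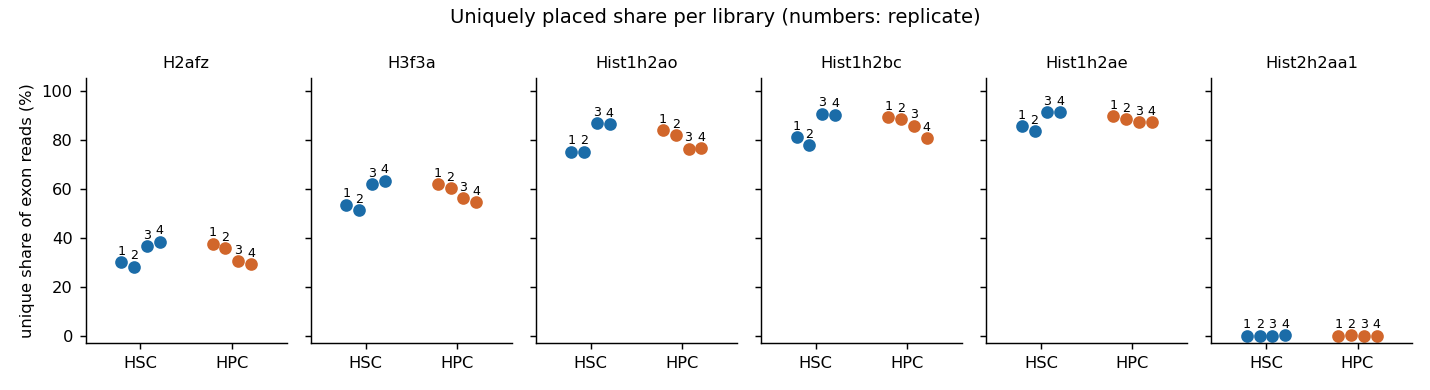
Uniquely placed share of exon reads in percent (y axis) for 6 histone genes, 1 point per library, HSC in blue and HPC in orange, with replicate numbers. H2afz lies between 28.2% and 38.3%, Hist2h2aa1 lies at or near 0, and HSC replicates 3 and 4 stand above HSC replicates 1 and 2 in the first 5 genes.

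For some single-exon genes the deposited gene reads exceeded the exon reads, although the given exon covers the whole gene span, and what the surplus reads are is not given in the sources used here. Of 47 such genes with at least 100 gene reads, in 14 over 50% of the gene reads were not counted as exon reads, and in 21 under 10%. In Hist1h4d, an H4 gene, the share was 78.5% in HSC and 83.2% in HPC. Its exon reads gave 11.98, 10.7, 2.82 and 2.69 CPM in HSC, against 8.93, 5.32, 17.9 and 18.6 CPM in HPC, with no call (−0.85 ± 0.49). Its gene reads gave 20.8, 12.3, 25.7 and 44.0 CPM in HSC, against 95.3, 47.0, 64.2 and 32.7 CPM in HPC, and were lower in HSC (−1.22 ± 0.34, adjusted p = 0.012). In exon reads the libraries with the smaller exon-exon share were the higher ones within each fraction. On gene reads 30 of 52 tested clustered genes were lower, beside 16.7% of 14249 genes tested, and 22 of them were also lower on exon reads.

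The 7 histone gene IDs without exons could be tested on gene reads alone, in a fit where 7.78% of 2443 gene IDs were lower in HSC. Hist1h2aj, an H2A gene, measured 0.298, 0.209, 0.251 and 0.475 gene reads, on the CPM scale of exon reads, in HSC, against 2.96, 1.99, 2.62 and 0.829 in HPC, a change of −2.98 ± 0.52 (adjusted p = 0.0027). Its groups did not overlap, and HPC replicate 4 was the lowest HPC library. The H3f3a pseudogenes H3f3a-ps1 and H3f3a-ps2 were lower, with changes of −1.09 ± 0.30 and −0.88 ± 0.27, and reads of these near-copies may be divided with H3f3a in either direction. Hist3h2bb-ps was not tested, with at most 11 gene reads in a library, and H2af-ps, Hist1h2al and H2afy3 received no gene read.

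Some genes that act on histone mRNA were lower in HSC too. Of 18 on a list of histone mRNA transcription and 3′ processing factors 6 were lower, 0 were higher by edgeR, by DESeq2 or at an unadjusted p under 0.05 (8 lower), and 12 had no call, with a median of −0.20. Over all genes tested 17.6% were lower and 19.6% higher. Slbp, the stem-loop binding protein, measured 282, 257, 251 and 295 CPM in HSC, against 396, 383, 385 and 423 CPM in HPC, a change of −0.55 ± 0.09 without overlap. Casp8ap2 (FLASH) and Srrt (ARS2), which act in histone mRNA 3′ end formation, were lower, with changes of −0.66 ± 0.14 and −0.40 ± 0.09. Npat, the cyclin E target at histone loci, and the U7 snRNP proteins Lsm10 and Lsm11 changed by −0.17 ± 0.18, 0.10 ± 0.14 and −0.13 ± 0.14 with no call; they were chosen after their values were seen.

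Of 27 genes for histone chaperones and exchange factors 14 were lower in HSC, 0 were higher by edgeR, by DESeq2 or at an unadjusted p under 0.05 (16 lower), and 13 had no call, with a median of −0.39. Over all genes tested 17.6% were lower and 19.6% higher. Chaf1a, the large subunit of the CAF-1 complex that deposits H3 and H4 behind replication forks, changed by −0.70 ± 0.10, and Tonsl, a reader of newly made H4, by −1.06 ± 0.17. Neither overlapped between the groups. Among 4 tested histone relatives that the name rule leaves out, Hp1bp3, a linker-histone-like protein, was lower, with a change of −0.73 ± 0.08. Cenpa, the CENP-A gene, had no call, with 131 ± 16.2 CPM in HSC against 158 ± 14.4 CPM in HPC (−0.28 ± 0.11, adjusted p = 0.057), and was chosen after its values were seen.

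Nearly every S-phase gene on the list was lower in HSC: 31 of 33 were lower, 1 was higher and 1 had no call, with a median of −0.75. Over all genes tested 17.6% were lower and 19.6% higher. Uhrf1, which acts in maintaining DNA methylation at replication, measured 108, 99.2, 83.5 and 111 CPM in HSC, against 290, 247, 217 and 237 CPM in HPC, a change of −1.31 ± 0.12. Hells, a chromatin remodeller, and Rfc2, a clamp loader subunit, changed by −1.27 ± 0.11 and −1.08 ± 0.10. Ccne1, which encodes cyclin E1, went the other way, with 45.4, 41.7, 47.7 and 70.5 CPM in HSC, against 17.5, 15.6, 14.2 and 16.7 CPM in HPC, a change of 1.68 ± 0.17. The share of cells in S phase was not measured, and its part in the histone levels was not tested.

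Markers of other blood cells were present at different levels in the 2 fractions. Their calls stand beside 17.6% lower and 19.6% higher over all genes tested. The 4 mast cell and basophil markers, all called lower in HSC, summed to between 5.38 and 37.0 CPM in HSC and between 78.2 and 195 CPM in HPC. The 7 red cell markers, 3 called higher, summed to between 183 and 462 CPM in HSC and between 40.9 and 161 CPM in HPC. Neutrophil and monocyte markers (1 lower of 5 tested among 7) summed to 189 to 285 CPM in HSC and 255 to 499 CPM in HPC, B cell markers (2 higher of 4) to 57.3 to 76.2 CPM in HSC and 52.3 to 61.9 CPM in HPC, and T and NK cell markers (3 higher of 5) to 28.4 to 41.7 CPM in HSC and 13.8 to 21.0 CPM in HPC. No marker was at 0 in all libraries, and their part in the histone results was not tested.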

How the data were processed

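Bulk RNA-seq libraries of 4 HSC and 4 HPC samples were used, as their titles name them. Extraction used ISOGEN, amplified cDNA came from the SMARTer Pico kit and the library kit was Nextera XT, per the labels. The build is mm10, per the submitters' processing notes; aligner, counter and strand: not given in the sources used here; overlapping genes cannot be told apart. The deposited counts are whole exon, intron, gene and exon-exon reads, total and unique. The deposited RPKM and the deposited fraction of unique over total reads follow from them, per the file headers. Reads were summed per gene ID and tested in edgeR 4.0.16 (filterByExpr, TMM, quasi-likelihood F test, Benjamini-Hochberg over all genes tested, threshold 0.05). A standard error is the absolute change over the square root of the F statistic. The fit was tested on simulated data. DESeq2 1.42.0 was an alternative. No libraries of a group looked like 1 library (chi-square per gene 11.5 to 38.3). Members and lists were chosen with earlier results of these data known. Named genes were all tested variants, the 10 most abundant clustered genes, up to 5 with the largest called change per direction at 1 CPM or more, up to 3 per list and direction, sort markers, and the top marker of each cell type list; 1 gene taken by this rule is not reported here. Of 122 list symbols 118 were matched; Rbbp4, Hira, Daxx and Cdc45 were not analysed here. Stem-loops were sought in GENCODE M21 transcripts; promoters are from RefSeq.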

Additional observations from a re-analysis of the deposited data

Results flagged for a closer look

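In 92 group-wise checks of 46 named genes, 4 had 1 library far from the other 3 of its group; chance alone flags about 1 in 20 such checks. H2afz was 1415 CPM in HSC replicate 4, above the other HSC libraries. H2afy was 307 CPM and Hist1h3d 3.07 CPM in HSC replicate 3, both below the other HSC libraries. Hist3h2a was 8.60 CPM in HSC replicate 4, above the others.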

How the results depend on the processing

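The number of clustered genes lower in HSC was 24, and it was 11 of 21 tested with at least 50 reads in 4 libraries, where fewer genes were tested, and 13 at an adjusted p under 0.01. It was 25 with DESeq2, 24 with RLE scaling, 20 with no filter, 18 without both libraries numbered 4, and 19 to 26 leaving out 1 library. The log2 change of the summed clustered level was −0.92, −0.83 with no TMM factor, −0.66 without Hist1h2ao (an alternative added after seeing the data, as were the covariate and the Hist2 sum without Hist2h2aa1), and −1.10 to −0.81 leaving out 1 library. Counts for the variant genes and the other lists stayed within 1.5 times. Shares over all genes are given here for the fits on total, unique and gene reads alone. For the other settings and thresholds they are not given, so those counts have no background beside them. No named gene reversed a call. Of 887 gene and setting pairs 869 stayed on the same side of the threshold, 8 lost a call and 10 gained one. A pair with no call in either setting counted among the 869 even where the sign changed. H1fx, for example, ran from −0.03 to 0.60 over the settings. Hist1h2ah missed the stricter threshold (adjusted p = 0.0102).

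With the replicate number as a block, 19 of 45 tested clustered genes and 7 of 10 tested variant genes were lower. There H2afj gained a call (adjusted p = 0.029) and Hist2h2ac lost it (adjusted p = 0.071). The share of all genes lower in that fit is not given here. Same-numbered libraries correlated in their deviations by −0.118 to 0.146, so the numbers were not taken as pairs. Genes under about 1 CPM rest on few reads, and identical copies cannot be resolved.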

Other observations

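Hist1h2ao and Hist1h2ap share most of their sequence: 93.5% of the stretches of 50 bases in the GENCODE transcript of Hist1h2ao also occur in Hist1h2ap. Even so, 75.1% to 86.7% of the Hist1h2ao reads in HSC libraries and 76.3% to 84.0% in HPC libraries were uniquely placed, and Hist1h2ap received between 0 and 3 reads in a library. The gene starts 98 bases earlier in the files than in GENCODE, and where along the gene its reads lie was not analysed here. Across 41 clustered genes with at least 100 reads, the share of such stretches that also occur in other gene models and the uniquely placed share had a Spearman rho of −0.667; the genes share libraries and, in part, sequence.

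Hist1h2ao held over 70% of the clustered reads in each of the 8 libraries, while its divergent partner Hist1h2bq held under 5 CPM on average in both fractions. Reads of Hist1h2bq cannot be told from those of its copy Hist1h2br, and the 2 together came to 3.22 to 6.69 CPM in HSC and 5.71 to 8.59 CPM in HPC.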
